A study of Wolfiporia cocos with 12 samples.

Results

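Transcript levels of the wood-decay fungus Wolfiporia cocos, strain MD-104, were compared between cultures grown on ground wood of a softwood, lodgepole pine (Pinus contorta), and of a hardwood, bigtooth aspen (Populus grandidentata). The comparison used 6 of the 12 libraries of the series, 3 on pine and 3 on aspen. It covered the 9888 of 12746 gene models whose mean was at least 1 RPKM (reads per kilobase of model and per 1000000 mapped reads) on either wood. Cultures held 250 ml of liquid medium, wood at 0.5% w/v was the only carbon source in those of this comparison, and mycelium was collected after 5 days of shaking. The other 6 libraries came from defined media with glucose or Avicel, a microcrystalline cellulose. They entered the comparison only as a shared estimate of the spread between cultures, and their levels are given beside some genes. All 6 wood libraries were sequenced on lane 2 and the others on lane 1, so lane does not differ between pine and aspen, whereas lane and medium cannot be told apart when a wood is set beside glucose or Avicel.

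Brown-rot basidiomycetes such as W. cocos remove cellulose and hemicellulose from wood and leave most of the lignin behind in modified form, with iron and hydrogen peroxide thought to open the wall before enzymes act. Softwood and hardwood walls differ in their matrix polymers. Galactoglucomannan is the main hemicellulose of conifers and glucuronoxylan that of poplars, and conifer wood also carries resin terpenoids. Pectin, a polymer rich in galacturonic acid, is a minor part of both, found mostly in middle lamellae and pit membranes. Fungi carry large families of cytochrome P450 monooxygenases, reductases and dehydrogenases that act on small aromatic and terpenoid molecules, and membrane transporters that bring in the sugars that wall enzymes release.

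The wood libraries held an estimated 11.2 to 22.4 M reads (M, 1000000 reads), taken from the spacing of the lowest values, and aspen replicate 3 and pine replicate 2 were the shallowest of their groups. In aspen replicate 3 the low values of 38 models lay at 1 step and those of 4 models at 0.5 steps (within 3%), and in pine replicate 2 these were 54 and 6 models, so few values lay below the step used. The absolute depths stay approximate, since lengths were taken from the models' start and end. In these libraries 3 reads on a 1-kb model correspond to between 0.134 and 0.268 RPKM, a floor for counting error alone. Levels on the log2 scale correlated across genes at r = 0.975 to 0.984 among aspen libraries, 0.956 to 0.977 among pine libraries and 0.952 to 0.976 between the woods, where genes are not independent replicates. The first principal component of the 6 libraries (39.2% of the variance) did not separate the woods, since pine replicate 2 and aspen replicate 2 lay at one end and pine replicate 3 at the other. The second component (23.2%) did, with aspen at 9.48 to 17.1 and pine at -29.4 to -3.44. Nothing in the labels says that replicate cultures were started from separate inocula, so the p-values measure the spread between these cultures.

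In the main fit few transcripts passed the thresholds for a difference between pine and aspen, and most of those were higher on pine. Their number moved with the libraries and the model used, as given below. With limma on log2(RPKM + 1), 17 genes (0.172% of those tested) passed a Benjamini-Hochberg adjusted p under 0.05 and a fold of at least 2, and these are referred to as called. Of them, 15 (0.152%) rose on pine and 2 (0.0202%) fell. The 15 were a dihydrodipicolinate synthetase, a mandelate racemase family protein and a pectin hydrolase of glycoside hydrolase family 28 (GH28), together with 3 sugar transporters, 3 P450s and 6 reductases, dehydrogenases or hydrolases of small molecules. The 2 that fell were another P450 and a model with no InterPro label. In all 17 the pine and aspen groups did not overlap, which the choice by p and fold all but fixes. Over all tested genes 5.43% had pine wholly above aspen and 6.84% wholly below.

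The median log2 change of all genes tested was -0.01, with 4675 above 0 and 5213 below. At an unadjusted p under 0.05 there were 694 genes (7.02%), of which 399 (4.04%) were higher and 295 (2.98%) lower on pine. Counts of family members given below are read beside these shares. No family was tested against the other genes. If no gene differed, a share of about 0.05 of the genes would still have an unadjusted p under 0.05. The count of calls depended on single libraries. It was 6 without aspen replicate 1, 6 without replicate 2 and 4 without replicate 3, while without pine replicate 3 it was 24. Without any single wood library, 4 of the 17 genes kept their call, and these were 104457, 24177, 92023 and 141280, named by the protein IDs of the deposited table. The other 13 lost it without at least 1 aspen library, and 10 of them also without at least 1 pine library, with an adjusted p of up to 0.178.

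**Figure D1:**
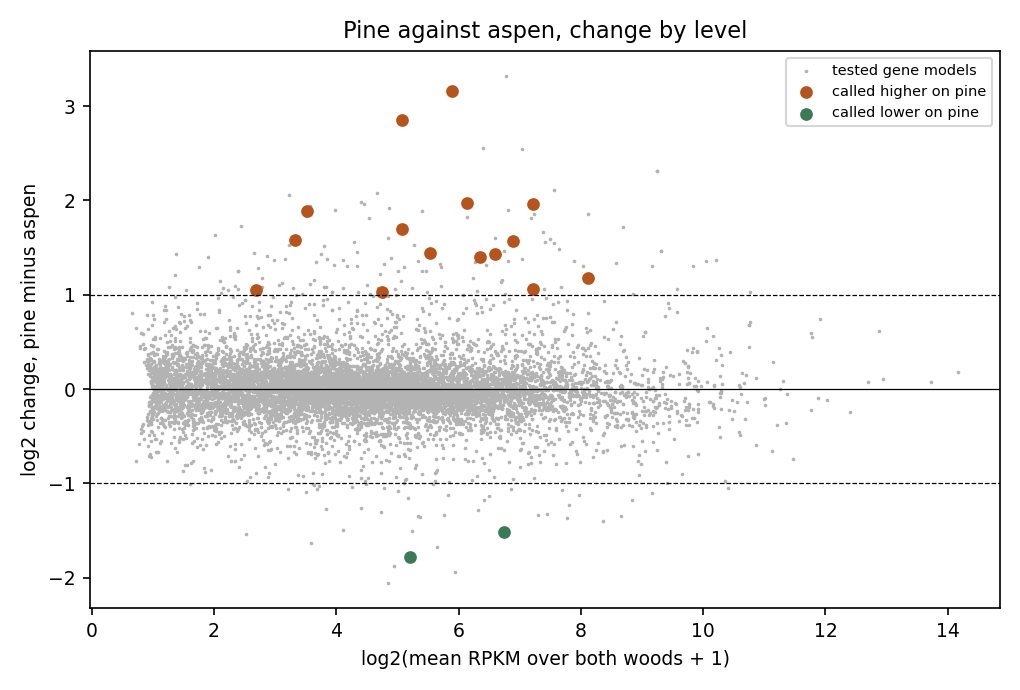
Each point is 1 of the 9888 tested gene models, with log2(mean RPKM over both woods + 1) on the x axis and the log2 change of pine minus aspen on the y axis; dashed lines mark a fold of 2. The 15 genes called higher and the 2 called lower are coloured, and most of the cloud lies between the dashed lines.

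**Figure D2:**
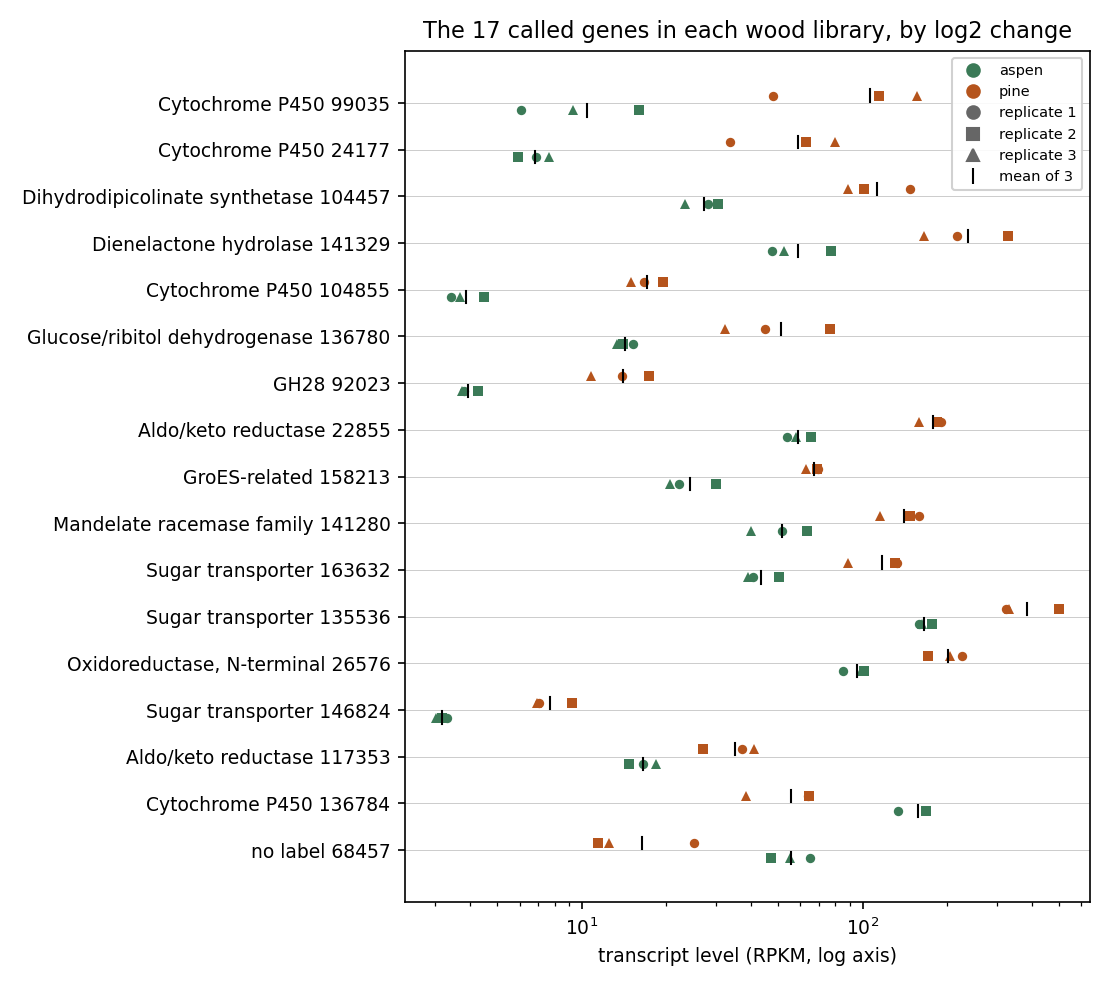
Transcript level of each of the 17 called genes in the 6 wood libraries, on a logarithmic RPKM axis, with symbols for the replicate and a bar at the mean of 3. In every row the 3 aspen points and the 3 pine points do not overlap.

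The call with the smallest p was in an aldolase family. Gene 104457 (scaffold 7, 2298513 to 2299948) carries the label dihydrodipicolinate synthetase, a family of aldolases that includes enzymes of lysine synthesis in bacteria and an aldolase of D-galacturonate breakdown in the ascomycete Trichoderma reesei. It stood at 28.1, 30.6 and 23.3 RPKM on aspen and at 147, 101 and 88.8 on pine. The lowest pine culture lay far above the highest aspen culture. The log2 change was 1.97 (SE 0.19, limma adjusted p = 0.00249), and the gene was lower on the defined media, at a mean of 3.89 RPKM on glucose and 6.08 on Avicel. Of the 4 tested models with this label, 1 rose and 3 did not pass, with a median log2 change of 0.60. Among these 3, model 17565 had the smallest p, at 5.32 ± 0.817 RPKM on aspen and 10.8 ± 2.96 on pine (SD, n = 3), with a limma adjusted p of 0.152. It was named after its values were seen.

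Both models of the mandelate racemase and muconate lactonizing enzyme family were higher on pine in every culture, and 1 of them was called. In T. reesei a member of this superfamily dehydrates L-galactonate, a step of galacturonate breakdown. Gene 141280 (scaffold 25, 210821 to 212798) stood at 51.4, 63.3 and 40 RPKM on aspen and at 159, 147 and 115 on pine, against means of 10.4 on glucose and 24.9 on Avicel. The groups lay well apart, and the log2 change was 1.44 (SE 0.17, limma adjusted p = 0.00799). Its protein was seen on pine, with 3 peptides and an emPAI score of 0.179, and had a score of 0 on aspen. An emPAI score is a protein abundance index computed from how many peptides were detected, and the authors deposited 1 value per medium, without replicates. The other member, 106973, stood at 14.7, 10.9 and 14.5 RPKM on aspen and 37.5, 23.5 and 29.3 on pine. Its groups did not overlap either, but its adjusted p of 0.0512 missed the threshold.

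Pectin hydrolases had the highest median change of any family with at least 5 tested models. The GH28 family, whose characterised fungal members are polygalacturonases that cut the pectin backbone, had 9 tested models and a median log2 change of 1.00, the highest of 263 such labels. Of the 9, 1 was called, 7 had an unadjusted p under 0.05 with pine higher, and 6 had pine wholly above aspen. Over all genes tested these shares were 0.152%, 4.04% and 5.43%, and no difference from other genes was tested. All 9 are given here because of that median, a choice made after their values were seen, and apart from 92023 and 128405 they lie outside the rule for naming genes.

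The called GH28 gene was 92023 (scaffold 14, 996666 to 998471), which carries a predicted signal peptide for secretion. It stood at 3.80, 4.28 and 3.74 RPKM on aspen and 13.9, 17.3 and 10.8 on pine. The aspen cultures were close to the means on glucose (3.96) and Avicel (3.21), and only pine stood apart among the 4 media. The log2 change was 1.58 (SE 0.17, limma adjusted p = 0.00424). Its neighbour 1958 bp away, carboxylesterase 81934, stood at 0.683, 1.36 and 0.948 RPKM on aspen and 2.44, 6.53 and 4.45 on pine. That neighbour was not called (limma adjusted p = 0.24).

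The most abundant GH28 transcript, 128405, stood at 50.5, 119.8 and 43.9 RPKM on aspen and at 120.0, 226 and 81 on pine. Its groups overlapped, since pine replicate 3 lay below aspen replicate 2. Model 125762 ran from 6.65 to 9.40 RPKM on aspen and stood at 13.4, 73.1 and 24.1 on pine, so its log2 change of 1.81 (SE 0.44) leans on pine replicate 2. A similar spread was seen in 29110, at 0.263, 1.45 and 0.858 RPKM on aspen against 3.32, 9.75 and 2.66 on pine. Models 79505, 25835 and 94031 had pine wholly above aspen, with log2 changes of 1.08, 0.77 and 0.62. The remaining members, 84014 and 125784, stood at 2.49 and 12 RPKM on aspen and 2.82 and 12 on pine, with overlapping groups. Summed over the 9 models, GH28 reached 112, 179 and 97.8 RPKM in the aspen libraries and 239, 412 and 172 in the pine libraries. Those sums overlapped, since pine replicate 3 lay below aspen replicate 2.

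Other enzymes of pectin side chains and esters had pine above aspen without being called. The table holds 3 models of the bacterial alpha-L-rhamnosidase label, a family that releases rhamnose, and they lie next to one another on scaffold 6. Rhamnosidase 25645 stood at 74.8, 77.5 and 60.8 RPKM on aspen and 182, 244 and 144 on pine, and 74146 at 5.87, 9.83 and 7.29 on aspen and 37.5, 45.6 and 19.2 on pine. All 3 had pine wholly above aspen, beside 5.43% of all genes tested, with a limma adjusted p from 0.181 to 0.577. Models 74146 and 102857 overlap on the scaffold, so their reads cannot be told apart and the 3 models are not 3 separate observations. Pectinesterase 165643, of a family that removes methyl esters from pectin, stood at 12, 23.7 and 11.1 RPKM on aspen and 44, 56.1 and 26 on pine (limma adjusted p = 0.142). The other pectinesterase, 28342, went the other way, from 44.4 ± 10.8 RPKM on aspen to 27.6 ± 3.43 on pine (limma adjusted p = 0.892). Over the list of pectin-active families 1 of 17 tested members rose, none fell and 16 did not pass, and the median log2 change was 0.31. Pectin lyase fold protein 23116 was the most abundant of that list, at 1577 ± 206 RPKM on aspen and 1734 ± 78.3 on pine. Rhamnosidases 25645 and 102857 and both pectinesterases were also named after their values were seen.

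**Figure D3:**
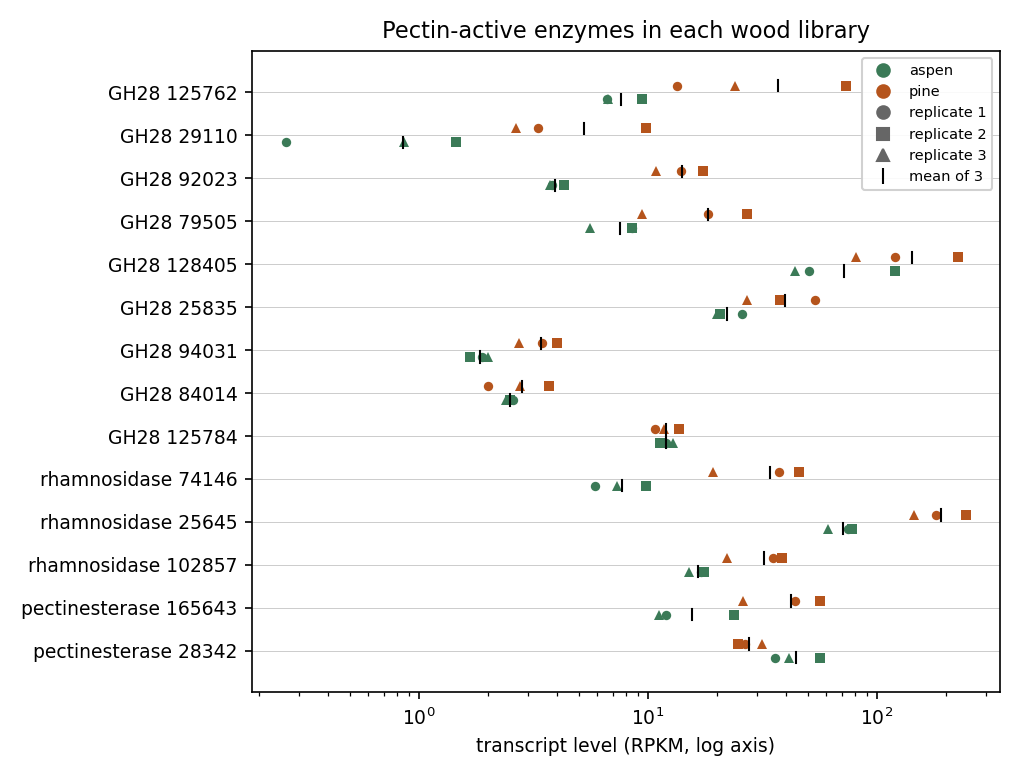
Levels of the 9 GH28 models, 3 rhamnosidases and 2 pectinesterases in the 6 wood libraries, on a logarithmic RPKM axis, with a bar at the mean of 3. Pine points lie to the right of all aspen points for 6 of the GH28 models, for the 3 rhamnosidases and for pectinesterase 165643. Rhamnosidases 74146 and 102857 overlap on the scaffold.

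Carriers that bring sugars across the cell membrane gave 3 calls, all higher on pine. Proteins of this label are proton-coupled or facilitative carriers of the major facilitator type. Of 23 tested models labelled sugar transporter 3 rose and 20 did not pass, beside 0.152% of all genes that rose. At an unadjusted p under 0.05, 7 were higher on pine and none was lower, beside 4.04% and 2.98% of all genes. The median log2 change was 0.12. Gene 135536 (scaffold 1, 3872997 to 3875139) stood at 159, 177 and 162 RPKM on aspen and 323, 498 and 333 on pine. The groups were far apart, and the log2 change was 1.18 (SE 0.18, limma adjusted p = 0.0270). Gene 163632 (scaffold 5, 1755098 to 1757501) stood at 40.6, 50.2 and 39.1 RPKM on aspen and 132, 130.5 and 89 on pine (log2 change 1.40, SE 0.23, limma adjusted p = 0.0393). The third, 146824 (scaffold 21, 187669 to 189680), was at a low level, with 3.31, 3.18 and 3.03 RPKM on aspen and 7.02, 9.25 and 6.90 on pine (log2 change 1.05, SE 0.15, limma adjusted p = 0.0169). Each of these 3 calls was lost without any 1 of the aspen libraries or without pine replicate 2, and that of 163632 also without pine replicate 1. The adjusted p then reached 0.124 for 135536, 0.153 for 163632 and 0.0934 for 146824.

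Several abundant carriers had pine above aspen without being called. Sugar transporter 29361 stood at 103, 129.9 and 92.9 RPKM on aspen and 252, 259 and 173 on pine (limma adjusted p = 0.0578). Its groups were apart. Those of general substrate transporters 107257, 137336 and 25378 and of sugar transporter 25027 did not overlap either, though only narrowly for 107257. The limma adjusted p of these 4 ran from 0.247 to 0.497. Transporter 107257 stood at 249, 421 and 239.7 RPKM on aspen and 432, 917 and 517 on pine, and 137336 at 454, 487 and 469 on aspen and 823, 1129.9 and 753 on pine. The most abundant carrier, 102298, averaged 835 ± 226 RPKM on aspen and 1305 ± 334 on pine, and its groups overlapped because pine replicate 3 lay below aspen replicate 2. Carriers 104972, 26276 and 27321 were also abundant and had overlapping groups, with log2 changes of -0.24, 0.28 and -0.12. Over the list of 54 tested sugar transporters and general substrate transporters 3 rose, none fell and 51 did not pass, and the median log2 change was 0.06. At an unadjusted p under 0.05, 10 were higher and none was lower, beside 4.04% and 2.98% of all genes. Of 104 other major facilitator transporters none was called by limma. At the same threshold 11 of them were higher and 1 lower, beside the same shares. The first of these, 141090, lies 9423 bp from 29361 on scaffold 21 and stood at 6.18 ± 0.288 RPKM on aspen and 17.3 ± 1.53 on pine (limma adjusted p = 0.0597).

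Enzymes that act on cellulose and hemicellulose gave no calls. Beta-glucosidases, which split cellobiose and other small glucosides into glucose, are found among GH3 and GH1 enzymes. Of 8 tested GH3 models 5 were higher on pine at an unadjusted p under 0.05, none was lower, and the median log2 change was 0.60. Over all genes 4.04% were higher and 2.98% lower at that threshold. GH3 29607 stood at 81.1, 98 and 82.1 RPKM on aspen and 163, 146 and 158 on pine. Its groups were clearly apart (limma adjusted p = 0.0278), but its log2 change of 0.84 (SE 0.13) was under the fold threshold. GH3 26667, with a predicted signal peptide, stood at 55.5, 91.1 and 51.5 RPKM on aspen and 103, 133 and 125 on pine. Its emPAI score was 2.41 on aspen and 4.69 on pine, although 15 peptides were seen on each wood. Among the GH3 proteins above 0 on a wood, 5 of 6 had the higher score on pine, beside 50.1% of all 645 such proteins. Above 0 on both woods were 5 GH3 proteins, all higher on pine, beside 57.6% of all 448 such proteins.

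Among 19 tested hemicellulase and side-chain enzymes none was called by limma, and the median log2 change was 0.23. At an unadjusted p under 0.05, 6 were higher on pine and none was lower, beside 4.04% and 2.98% of all genes. Alpha-L-arabinofuranosidase 77451, of a family that removes arabinose side chains, stood at 171, 109 and 119.8 RPKM on aspen and 388, 349 and 279.9 on pine, with adjusted p = 0.0597. Its protein score was 0.379 on aspen and 0.802 on pine. The other arabinofuranosidases, 19345 and 106050, lie beside it on scaffold 9 and did not share this, with log2 changes of -0.05 and 0.19 and overlapping groups. GH31 149294, of the alpha-glucosidase and alpha-xylosidase family, stood at 52.1, 56.2 and 39.4 RPKM on aspen and 144, 121 and 105 on pine (limma adjusted p = 0.22). GH2 24785, from a family that holds beta-mannosidases and beta-galactosidases, averaged 117 ± 7 RPKM on aspen and 164 ± 12.8 on pine (limma adjusted p = 0.594).

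The most abundant xylanase family member had nearly equal means on both woods. GH10 164484, of a family of endoxylanases, reached 886, 1481 and 479 RPKM on aspen and 946, 1509.7 and 434 on pine. The second replicate was the highest and the third the lowest on both woods, the spread between replicates was wide, and the log2 change was -0.01 with an SE of 0.79. Of 26 cellulases and wall-loosening proteins none was called by limma, 2 were higher and 2 lower on pine at an unadjusted p under 0.05, and the median log2 change was 0.07. GH5 139561, from a family of endoglucanases and mannanases, stood at 95.7, 202 and 102 RPKM on aspen and 312, 316 and 192 on pine, and GH5 101537 at 28.2, 26.1 and 23.4 on aspen and 14, 20 and 14.3 on pine. The protein score of 139561 was 0.772 on aspen and 0.599 on pine, against its transcript change. Both lytic polysaccharide monooxygenases of family 61 had overlapping groups.

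**Figure D4:**
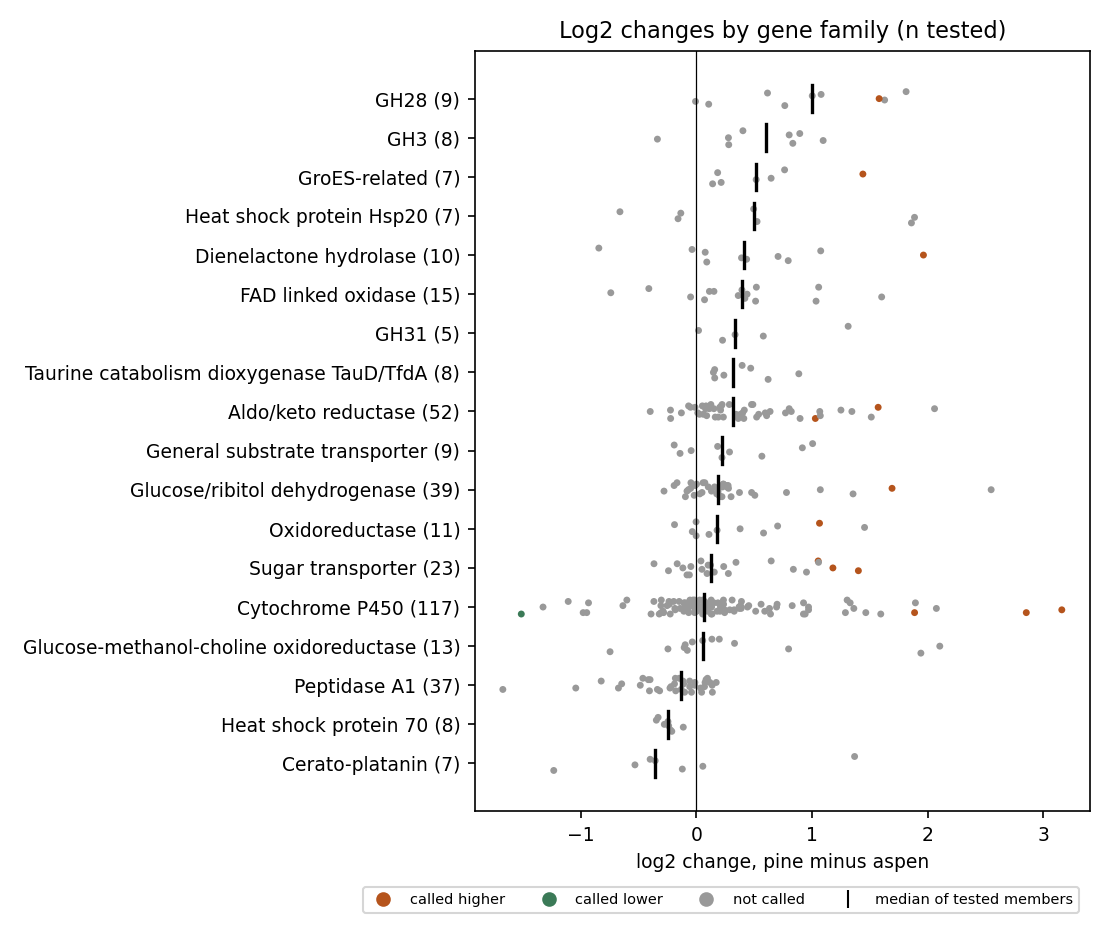
Log2 change of pine minus aspen for the tested members of 18 families, ordered by their median (black bar), with called members coloured; the P450 row holds the 117 models with that exact label. GH28 has the highest median at 1.00, cerato-platanins the lowest at -0.35, and P450s the widest range.

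Cytochrome P450 monooxygenases, haem enzymes that oxidise small molecules and are numerous in wood-decay fungi, held 3 genes that rose on pine and 1 that fell, among them the largest called rise. Of 169 tested P450s 3 rose, 1 fell and 165 did not pass. At an unadjusted p under 0.05 there were 22 higher and 10 lower, and the median log2 change was 0.06. On the log2 scale 13 P450s were at least 2-fold higher and 3 at least 2-fold lower, beside 1.39% and 0.455% of all genes tested. Gene 99035 (scaffold 3, 3483874 to 3486215) had the largest called rise, from 6.08, 16 and 9.30 RPKM on aspen to 47.8, 114 and 156 on pine (log2 change 3.16, SE 0.47, limma adjusted p = 0.0203). Gene 24177 (scaffold 3, 3473672 to 3476193) rose from 6.89, 5.95 and 7.62 RPKM to 33.7, 62.6 and 79.9 (log2 change 2.85, SE 0.29, limma adjusted p = 0.00249). Both were lowest in pine replicate 1 and highest in pine replicate 3. The call of 99035 was lost without aspen replicate 1, aspen replicate 3 or pine replicate 2, with an adjusted p of up to 0.0982, and that of 24177 was kept in each case.

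These 2 genes lie within 7681 bp of each other, in a stretch of 19.6 kb that holds 6 models, of which 5 are P450s. Its ends were set at the outermost P450s within 10000 bp of either gene, so P450s end it by construction. Unlabelled models 117404, 16579 and 150592 lie within that distance and outside the stretch. Of the other 3 P450s in the stretch, 2 had pine wholly above aspen, beside 5.43% of all genes tested. Gene 24176 stood at 40.9, 29.7 and 61.7 RPKM on aspen and 99.5, 138 and 296 on pine, and 24175 at 8.86, 3.42 and 11.4 on aspen and 24.7, 18.4 and 80 on pine. Neither passed (limma adjusted p = 0.277 and 0.219), although the groups of both were apart. P450 136921, which lies 418 bp from 24177, stood at 4.56 ± 0.421 RPKM on aspen and 5.20 ± 0.738 on pine, and protein kinase 136922, between 136921 and 99035, at means of 29.4 and 31.1. These 2 models were named after their values were seen, because they lie inside the stretch. All 4 P450s with pine above aspen were at low levels on glucose, with means of 0.775 to 2.14 RPKM, and at 3.55 to 15.1 RPKM on Avicel. Neighbouring copies can share reads where they are near-identical, so these values are uncertain.

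**Figure D5:**
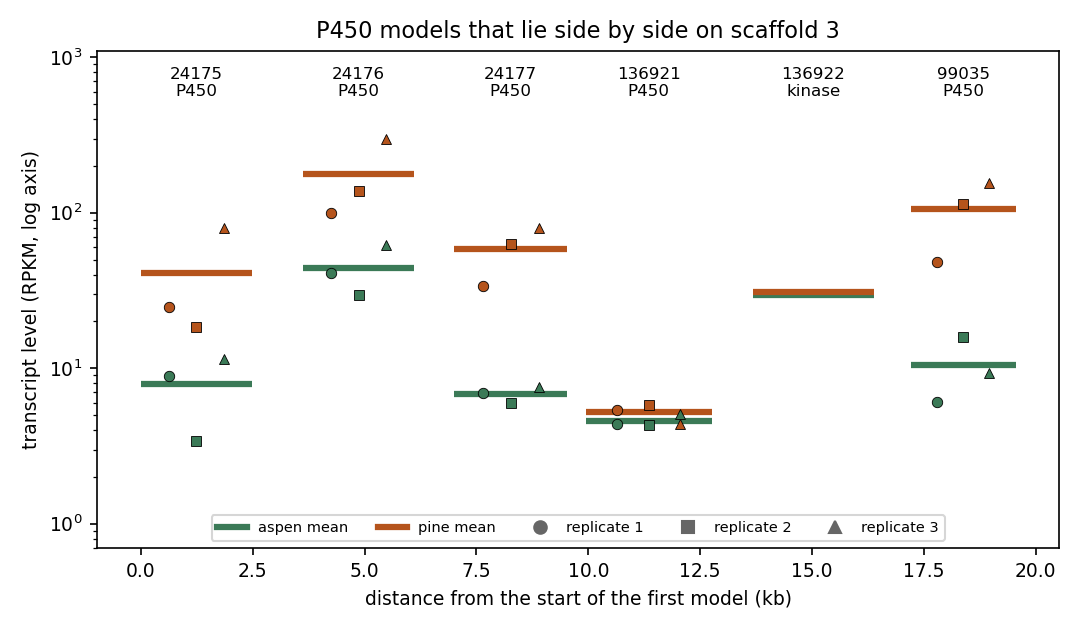
Levels of the 6 models in the P450 stretch on scaffold 3, on a logarithmic RPKM axis, against distance in kb from the start of the first model; bars are means of 3 and points are libraries (means alone for the kinase). For 4 P450s, among them the called 24177 and 99035, every pine point lies above every aspen point. P450 136921 and the kinase have nearly the same level on both woods.

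The third P450 that rose, 104855 (scaffold 8, 1216117 to 1218375), stood at 3.42, 4.49 and 3.69 RPKM on aspen and 16.7, 19.4 and 15 on pine (log2 change 1.89, SE 0.32, limma adjusted p = 0.0461). Its replicates were tight, but the adjusted p lay close to the threshold and was over it without any 1 of the 6 wood libraries, at up to 0.177. The P450 that fell was 136784 (scaffold 3, 2527152 to 2530169), at 134, 168 and 168 RPKM on aspen and 63.7, 64.3 and 38.3 on pine. Every aspen culture was well above the highest pine culture, and the log2 change was -1.51 (SE 0.21, limma adjusted p = 0.0169). Without aspen replicate 2 or 3 the call was lost, with an adjusted p of up to 0.0934. A second model, 23997, overlaps it and has a mean of 0 RPKM on both woods, so the value of 136784 depends on how reads of that place were assigned. On the defined media 136784 was lower than on aspen, at means of 18.9 RPKM on glucose and 41 on Avicel.

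Other P450s differed in level without passing. Gene 167294 stood at 96.6, 78.5 and 79.8 RPKM on aspen and 175, 403 and 243 on pine (limma adjusted p = 0.0625). Gene 155285 went the other way, at 182, 298 and 264 RPKM on aspen and 96.7, 68.1 and 135 on pine (limma adjusted p = 0.152). In both, the groups did not overlap, as in 22 P450s with pine above and 13 with pine below, beside 5.43% and 6.84% of all genes tested. The share with pine below is near that of all genes.

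Reductases and dehydrogenases that use NAD(P)H, which reduce aldehydes, ketones and sugars, gave 2 calls among aldo/keto reductases. Of 52 tested aldo/keto reductases 2 rose, none fell and 50 did not pass. In 45 of them the log2 change was above 0, beside 4675 of all 9888 genes. At an unadjusted p under 0.05 there were 13 higher and none lower, beside 4.04% and 2.98% of all genes, and the median was 0.32. Whether the family differs from other genes was not tested. In fungi this family includes xylose, galacturonate and aryl-aldehyde reductases, and the label does not say which a member is. Gene 22855 (scaffold 2, 558817 to 560166) rose from 53.6, 65.4 and 57.9 RPKM on aspen to 189.7, 184 and 159 on pine (log2 change 1.57, SE 0.23, limma adjusted p = 0.0203). Gene 117353 (scaffold 3, 3076503 to 3078259) rose from 16.5, 14.7 and 18.3 RPKM to 37.2, 27 and 41.1 (log2 change 1.03, SE 0.15, limma adjusted p = 0.0203). Replicates within a wood lay close together for 22855, and its mean was 158 RPKM on glucose and 109 on Avicel, so aspen had the lowest mean of the 4 media. Gene 117353 averaged 32.7 RPKM on glucose and 18.7 on Avicel, the latter close to its aspen values. Without pine replicate 1, or without any 1 aspen library, both calls were lost, as was that of 22855 without pine replicate 2 and that of 117353 without pine replicate 3. The adjusted p was then up to 0.1 for 22855 and 0.0998 for 117353.

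Further aldo/keto reductases stood near the threshold. Gene 140564 stood at 34.2, 49.9 and 41.5 RPKM on aspen and 128, 128 and 74.2 on pine (limma adjusted p = 0.0597), and 136041 at 22.4, 21.5 and 28.4 on aspen and 56, 91.2 and 38.7 on pine (limma adjusted p = 0.0786). Neither group pair overlapped. Gene 114165, 698 bp from 22855, had the largest log2 change of the family at 2.06 (SE 0.69), but its values of 0.890, 0.627 and 4.67 RPKM on aspen and 9.04, 2.77 and 32.4 on pine overlapped.

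Glucose/ribitol dehydrogenases, a label of the short-chain dehydrogenase superfamily, had 1 call among 39 tested models and a median log2 change of 0.19. Gene 136780 (scaffold 3, 2503468 to 2505188) rose from 15.3, 14.1 and 13.3 RPKM on aspen to 44.8, 76.3 and 32.4 on pine (log2 change 1.69, SE 0.24, limma adjusted p = 0.0179). Its level was highest on glucose, with a mean of 95.5 RPKM. The call was lost without any 1 of the aspen libraries, with an adjusted p of up to 0.0982. Gene 136777, 6545 bp away, carries the same label and stood at 22.5, 20.7 and 20.1 RPKM on aspen and 53.8, 79.5 and 39.9 on pine (limma adjusted p = 0.0625). In both genes pine replicate 2 was the highest and pine replicate 3 the lowest of the pine cultures. Gene 67420 of this label stood at 40.7, 14.9 and 35.9 RPKM on aspen and 105, 94 and 488 on pine, so its log2 change of 2.55 (SE 0.61) rests largely on pine replicate 3 (limma adjusted p = 0.19). Over the whole list of 179 NAD(P)-linked dehydrogenases and reductases 2 rose, none fell and 177 did not pass, with 32 higher and 4 lower at an unadjusted p under 0.05 and a median of 0.19. That list holds the aldo/keto reductases but not the glucose/ribitol label.

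The label GroES-related, a fold shared by zinc-type alcohol dehydrogenases and quinone reductases, had 7 tested models with log2 changes all above 0 and a median of 0.52. Gene 158213 (scaffold 19, 475027 to 476757) rose from 22.2, 30.1 and 20.6 RPKM on aspen to 69.2, 68.6 and 62.6 on pine (log2 change 1.44, SE 0.18, limma adjusted p = 0.0113). The pine cultures were nearly equal, and the call was lost without aspen replicate 1 or 3 (adjusted p up to 0.0811). Gene 24495 stood at 209.8 ± 19.5 RPKM on aspen and 332 ± 60 on pine (limma adjusted p = 0.281) and was chosen after its values were seen. Among 11 models labelled oxidoreductase, N-terminal, a dehydrogenase fold that often acts on sugars, 26576 (scaffold 8, 964170 to 967326) rose from 85.1, 101 and 98.6 RPKM to 226, 171 and 205 (log2 change 1.07, SE 0.18, limma adjusted p = 0.0489). It overlaps model 76347, so its value is uncertain, and its adjusted p was over the threshold without any 1 of the wood libraries, at up to 0.178. Its relative 93725 stood at 9.02, 11.8 and 8.38 RPKM on aspen and 36.7, 29.3 and 20.7 on pine, just over the threshold at 0.0505. NAD(P)-binding protein 124211 passed the adjusted p (0.0461) with a log2 change of 0.91, under the fold threshold.

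Dienelactone hydrolases, of a family whose bacterial members open lactones formed in the breakdown of aromatic rings, had 1 call among 10 tested models. Gene 141329 (scaffold 27, 218979 to 220191) rose from 47.6, 77.1 and 52.4 RPKM on aspen to 217, 329.9 and 166 on pine (log2 change 1.96, SE 0.33, limma adjusted p = 0.0396). Its level on glucose (44.9 RPKM) and Avicel (60.4 RPKM) was like that on aspen, and pine was the high medium. The call was lost without any 1 of the aspen libraries or without pine replicate 1 or 2, with an adjusted p of up to 0.175. Over the family 6 members were higher on pine at an unadjusted p under 0.05, none was lower, and the median log2 change was 0.41. Gene 139018, named after its values were seen, stood at 22.7, 25.9 and 21.4 RPKM on aspen and 49, 50.9 and 50.7 on pine (limma adjusted p = 0.24).

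Oxygenases and oxidases outside the P450s gave no calls by limma. Among 33 TauD/TfdA and 2-oxoglutarate iron dioxygenases, 30 had a log2 change above 0, beside 4675 of all 9888 genes, and the median was 0.29. At an unadjusted p under 0.05, 6 were higher and none was lower, beside 4.04% and 2.98% of all genes. TauD/TfdA dioxygenase 113715, chosen after its values were seen, stood at 121, 136 and 145 RPKM on aspen and 178, 170.5 and 181 on pine. Glucose-methanol-choline oxidoreductase 24953, of a flavin family that includes alcohol and sugar oxidases forming hydrogen peroxide, stood at 60.3, 81.7 and 54.4 RPKM on aspen and 213, 513 and 202 on pine. Its groups were far apart and its adjusted p was 0.0508. Its emPAI score was 0.0722 on aspen, with 2 peptides, and 0 on pine, against its transcript change. Of the 19 peroxide-generating oxidases tested, 24953 and 133604 were the 2 with an unadjusted p under 0.05. DUF1479 protein 92079 stood at 59.7, 110.0 and 86.9 RPKM on aspen and 243, 181 and 340.1 on pine (limma adjusted p = 0.0841), and its emPAI score was 0 on aspen and 0.677 on pine. It overlaps another model.

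Only 1 labelled gene, P450 136784, fell on pine. The unlabelled gene that fell, 68457 (scaffold 3, 1888989 to 1892585), went from 64.9, 47.3 and 54.9 RPKM on aspen to 25.2, 11.5 and 12.5 on pine (log2 change -1.78, SE 0.28, limma adjusted p = 0.0278). It was at 18.5 RPKM on glucose and 37.6 on Avicel. Without any 1 of the aspen libraries, or without pine replicate 2 or 3, its adjusted p was over the threshold, at up to 0.145. MutL family protein 99424, of a family that repairs DNA mismatches, was at 64.7, 58.8 and 65.7 RPKM on aspen and 31, 31 and 39.5 on pine, with an adjusted p of 0.0181 but a log2 change of -0.89, under the fold threshold. Unlabelled genes 136975 and 129955 and N-acetyltransferase 94664 had log2 changes of -1.49, -1.34 and -1.12 and adjusted p from 0.0508 to 0.0786. Peptidase A1 22529, a secreted aspartic peptidase, stood at 104, 74.4 and 47.2 RPKM on aspen and 28.1, 24.4 and 15 on pine, against means of 849.7 on glucose and 812 on Avicel (limma adjusted p = 0.1). Its emPAI score was 0.744 on aspen and 0.846 on pine, against its transcript change. Of 37 tested aspartic peptidases 6 were lower and none higher on pine at an unadjusted p under 0.05, none was called, and the median log2 change was -0.13.

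Genes linked to Fenton chemistry, in which ferrous iron and hydrogen peroxide form hydroxyl radicals, gave no calls by limma. Of 11 tested genes of iron reduction and uptake none was called by limma and none had an unadjusted p under 0.05. In 9 of them the log2 change was below 0, beside 5213 of all 9888 genes, and the median was -0.15. Of 9 haem peroxidases and chloroperoxidases, which use hydrogen peroxide, 2 were lower and none higher on pine at an unadjusted p under 0.05. Pine was wholly below aspen in 3, and the median was -0.23. Over all genes 2.98% were lower at that threshold and 6.84% wholly below. Among peroxide-generating oxidases the gene nearest to a call was 24953, given above. Ferric reductase 109665, of a membrane family that reduces ferric iron, stood at 482, 181 and 1016 RPKM on aspen and 166, 61.8 and 518 on pine. The spread among replicates was as large as the gap between the woods, and in both the third replicate was highest and the second lowest. Iron permease 132403 averaged 145 ± 16.1 RPKM on aspen and 135 ± 15 on pine. Of 5 multicopper oxidases, the enzyme family of laccases and ferroxidases, 1 was higher and 1 lower at an unadjusted p under 0.05. Multicopper oxidase 139080 stood at 42.9, 36.7 and 55.9 RPKM on aspen and 91.3, 41.4 and 128 on pine, with overlapping groups, and its protein was seen on pine with 5 peptides and on aspen with none.

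Broad cell functions gave no calls by limma. Among ribosomal proteins, 92 of 117 tested members had a log2 change below 0, beside 5213 of all 9888 genes, the median was -0.18, and 2 were lower and none higher at an unadjusted p under 0.05. Among 166 transcription factors 5 were lower and none higher at that threshold, and among 210 protein kinases 3 were lower and 2 higher. Of 30 fungal wall enzymes 1 was lower and none higher, with a median of -0.12. The 30 terpenoid and sterol enzymes had 2 higher and 3 lower, among them terpene synthases 120409, at 19.4 RPKM on aspen and 41 on pine, and 133798, at 29.1 and 16.7. Heat shock protein 70 members all had log2 changes below 0, from -0.35 to -0.11, and none passed.

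The most abundant transcripts were shared by both woods. Unlabelled 137127 led with 17101 ± 753 RPKM on aspen and 19889 ± 5487 on pine, and 167658 ranged from 4983 to 17902 on aspen and from 4176 to 24059 on pine. In both the groups overlapped. Cerato-platanin 72733, from a family of small secreted proteins, stood at 3319.8, 4638 and 5091 RPKM on aspen and 3146, 3863 and 5019.9 on pine. Unlabelled 22946 and 28560 had pine wholly above aspen, at 5949 ± 612 and 2903 ± 478 RPKM on aspen against 9149 ± 1051 and 4808 ± 147 on pine, with a limma adjusted p of 0.489 and 0.671. None of the 10 most abundant transcripts was called.

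Protein scores gave a separate view, with 1 value per medium and no replicate. Of 704 proteins with scores, 580 were above 0 on aspen, 513 on pine and 448 on both, and over proteins above 0 on either wood 50.1% had the higher score on pine. Of the 448 above 0 on both, 57.6% had the higher score on pine, with a median ratio of pine to aspen of 1.14. The scores summed to 458.6 on each wood, although fewer proteins were above 0 on pine. Proteins with at least 3 peptides on 1 wood and 0 on the other numbered 20 for pine and 47 for aspen. All 4 GH28 proteins with a score were higher on pine, as were both rhamnosidases. Above 0 on both woods were 3 of the GH28 proteins, with a median ratio of 1.42, and 1 rhamnosidase, with a ratio of 2.50. Whether these differ from other proteins was not tested. The largest difference among these proteins was in rhamnosidase 25645, at 0.891 on aspen and 2.22 on pine. Of the called genes only 141280 and 22855 had a protein score on a wood, and they differed, since reductase 22855 had 0.166 on aspen and 0 on pine against its transcript change. Of the woods, P450 138085 was seen on aspen alone, with 5 peptides, and its transcript stood at 598, 997 and 692 RPKM on aspen and 196, 627 and 333 on pine. P450 134167 went the other way in its protein, seen on pine alone with 4 peptides, while its transcript averaged 97.6 RPKM on aspen and 49.0 on pine. Both P450s were named for their protein scores, after their values were seen.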

How the data were processed

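RNA of W. cocos was sequenced as reads of 100 nt from triplicate cultures on 4 media, per the labels. The submitters' processing notes name CASAVA 1.8.2. No aligner, counter, strand setting or assembly is given in the sources used here. The authors deposited 1 normalized value per gene model and library, whose unit was inferred from the values and the model lengths to be RPKM. The deposited table also holds the authors' p-values, a signal peptide probability given as a fraction, and, for proteins, emPAI scores and peptide numbers with 1 value per medium.

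Values were taken as log2(RPKM + 1), so changes of low genes are understated. Models with a mean of at least 1 RPKM on aspen or pine were fitted with limma 3.58.1 (R 4.3.3) over all 12 libraries and 4 groups, which share 1 estimate of the spread (8 residual degrees of freedom), and p-values were adjusted over all 9888 by the Benjamini-Hochberg method. The fit was also run on simulated data. The outcome is not given here, so nothing about the error rate of the fit is drawn from that run. Families are models with the same InterPro label, and 37 lists were assembled from words in the labels, after removing 179 models by label. The members and lists were chosen with earlier results of these data known.

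Named by rule were the called genes, the 12 labelled genes with the largest change each way at an unadjusted p under 0.05, each list's member with the smallest p (and the second for lists of 20 or more), the 10 most abundant genes, genes with an adjusted p under 0.1 and a fold of 2, and wall, Fenton and sugar transporter members at 100 RPKM or more. Genes named beside these were chosen after their values were seen. Depth was estimated from the smallest frequent step between low values, and intervals from it cover counting error only. Alternatives were other pseudocounts, filters and scalings, other sets of libraries, a replicate block, and leaving out each library.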

Additional observations from a re-analysis of the deposited data

How the results depend on the processing

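Of the 17 calls, those of 104457, 24177 and 92023 were kept under all 25 alternatives, and that of 141280 was lost only with aspen and pine libraries alone (limma adjusted p = 0.0808). The total was 5 with no filter on low values and 10 with aspen and pine libraries alone, of which 6 were shared. The higher and lower counts were 5 and 0 with no filter, and the lower count was 0 with the wood libraries alone. Leaving out 1 library gave totals from 4 (without aspen replicate 3) to 24 (without pine replicate 3), 4 to 23 higher and 0 to 4 lower. Whether replicate numbers pair the samples was not settled, and the main fit used no pairing. Deviations of same-numbered aspen and pine libraries correlated at 0.006, 0.156 and 0.448, and those of differently numbered ones at -0.331 to 0.213. Not every library correlated best with its own number. With the replicate number as a block the wood libraries alone gave 75 calls, 58 higher and 17 lower, of which 16 were shared with the 17, and all 12 libraries gave 21, of which 5 were lower. Median centring and quantile scaling gave 15 calls each, 13 of them shared. None of the 17 called genes changed direction under the 25 alternatives, whereas some named genes with changes near 0 did. The choice of the 17 by p and fold, with groups that do not overlap, all but fixes their direction. Without the shallower libraries, an alternative chosen after seeing the data, 17 genes were called, of which 6 were shared. The causes of these shifts were not tested. The 4 called genes with an aspen mean under 10 RPKM rest on fewer reads than the others.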

Other observations

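The gene groups not described above held no call by limma. Their counts at an unadjusted p under 0.05 are read beside 4.04% higher and 2.98% lower over all genes, and no difference from other genes was tested. Hsp20 proteins, small chaperones, had 7 tested models with a median log2 change of 0.50. Of the 28 antioxidant enzymes tested, 6 were higher and none lower on pine at an unadjusted p under 0.05 (median 0.08). Aldehyde dehydrogenases had 4 higher and 1 lower of 19 (median 0.17), and glutathione S-transferases 1 higher and 2 lower of 24 (median 0.20). Flavin-dependent monooxygenases had 4 higher and 1 lower of 19 (median 0.15), while quinone and enone reductases had 2 lower and none higher of 13 (median -0.13). Haem peroxidases and chloroperoxidases had 2 lower and none higher of 9 (median -0.23).

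Carbohydrate esterases had 3 higher and none lower of 20 (median 0.26), and beta-glucosidase families 5 higher and none lower of 9 (median 0.40). Carbohydrate-binding proteins had none of 29 at that threshold (median -0.04), nor did 13 oxalate and glyoxylate enzymes (median 0.12). Glycolysis and TCA enzymes had 3 higher and 1 lower of 43 (median -0.01). Cerato-platanins and hydrophobins had 1 lower and none higher of 7 (median -0.35). Among transporters, ABC types had 2 higher and 1 lower of 42 (median -0.10), and oligopeptide and amino acid types 1 higher and 3 lower of 45 (median 0.07). Methyltransferases had 2 higher and none lower of 38 (median 0.02), and lipases with fatty acid enzymes 1 higher and 2 lower of 46 (median 0.00). Polyketide and non-ribosomal peptide enzymes had 2 higher and 3 lower of 48 (median 0.04), heat shock proteins and chaperones 3 higher and 4 lower of 69 (median -0.09), all peptidases 4 higher and 12 lower of 221 (median -0.05), and DNA replication, cell cycle and histone genes 1 higher and 2 lower of 64 (median -0.02).

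The largest log2 change of all tested genes was in the unlabelled model 76446, at 3.32, with overlapping groups and a limma adjusted p of 0.233. Models 86319 and 86172 hold identical values in the 6 wood libraries, with means of 168 RPKM on aspen and 1049 RPKM on pine and overlapping groups, so they do not count as separate genes.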
